A study of Homo sapiens with 54 samples.

Results

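The comparison is FGFC against bFGF in H1 ESCs, a human embryonic stem cell line, after 4 days in E8 Medium. bFGF is basic fibroblast growth factor, the product of FGF2, and FGFC is a chimeric protein made of parts of human FGF1 and FGF2. The arms were chosen by the sample titles, which name the line, the day, the factor and the experiment, and they hold 12 of the 54 arrays of the series. Each arm has 6 arrays, which are 3 cultures (experiments 1, 2 and 3) on 2 arrays each, and duplicate arrays were averaged so that n = 3 cultures per arm throughout.

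All cultures of these experiments were grown without feeder cells on Matrigel in E8 Medium, which is Essential 6 Medium with TGF-beta 1 (2 ng/mL) and FGF. The FGF was bFGF (100 ng/mL), FGFC (also 100 ng/mL) or left out. Pre-cultures had bFGF at the same concentration. The 3 arms have passage 49, 59 and 51 in the titles of experiments 1, 2 and 3, and the pre-cultures have passage 48, 49 and 50. All are cultures of 1 line, and the labels call them experiments without saying more, so p-values and intervals measure only the spread between these cultures. RNA was hybridised to 1-colour Agilent arrays, and a level is the log2 signal minus the 75th percentile of its array, so that 0 is the 75th percentile. Levels of different probes were not set against each other to rank genes, though the levels of cell type markers were summed. Differences are on the log2 scale, where 1 is 2-fold. Of 42405 probes, 22700 were well above background on all 12 arrays by the scanner software's own mark. These well measured probes hold 16716 probes with a gene symbol for 13257 genes.

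FGF signalling keeps human ESCs undifferentiated. FGF binds its receptors together with heparan sulfate, the receptors signal through the RAS and ERK kinase cascade and through PI3 kinase, and ERK induces its own inhibitors, the DUSP phosphatases and the Sprouty proteins. In E8 Medium, TGF-beta 1 acts beside FGF through SMAD2 and SMAD3, which also transmit Nodal signals. FGF1 binds all FGF receptor forms, whereas FGF2 is more selective, and FGFC is described as active without added heparin and more stable than bFGF.

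Between H1 ESCs kept with FGFC and those kept with bFGF, no gene passed the test. Among genes with the same direction in every experiment, ACTA1, CXXC4 and 1 of the probes of MT1X were 2-fold or more lower in the mean with FGFC, and CUZD1, PKDCC, JAKMIP2-AS1 and SCN4B were 2-fold or more higher. The median difference was 0.01 over the genes of pluripotency, -0.15 over the ERK feedback inhibitors and -0.14 over the ERK target genes. Both ERK medians were above 0 in experiment 1 and below 0 in experiments 2 and 3. The median of the 13 housekeeping genes, -0.10, had the same signs (0.23, -0.37 and -0.14). CRIPTO, which fell by 3.32 without FGF, differed by 0.05 between FGFC and bFGF (95% interval -0.41 to 0.50).

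Over the 22700 well measured probes, the log2 difference FGFC minus bFGF had a median of -0.02 and an SD of 0.150. The middle 95% of probes lay between -0.29 and 0.30, which is 1.22-fold lower to 1.23-fold higher. In limma, 0 of the 22700 probes (0%) passed an adjusted p of 0.05, 119 (0.524%) had an unadjusted p under 0.05, and the lowest adjusted p was 0.769. A p above the threshold does not show that the arms are alike, so each probe's 95% interval was set against fixed bounds. For 21635 probes (95.3%) the interval lay inside a 2-fold difference either way, and for 7787 (34.3%) it lay inside 0.5 either way. The median interval reached 0.46 to either side of its estimate, so smaller differences of single genes were mostly not detectable. In simulated cultures of this design the test recovered 24 of 100 probes changed 2-fold and 96 of 100 changed 4-fold. The simulation drew independent noise for each probe, without shifts shared by many probes of a culture. In the real cultures the share of 0.524% is far below the 0.05 that such noise alone gives. The SD of 0.150 is also below the median standard error of 0.208. The simulated counts may therefore not hold for the real cultures.

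In the mean of the experiments, the difference was small beside the effect of FGF removal. No FGF minus bFGF had an SD of 0.747, which is 4.98 times that of FGFC minus bFGF, and a median absolute value of 0.290 against 0.0862. The SD of 0.150 for FGFC minus bFGF became 0.262 without the FGFC culture of experiment 1 and 0.261 without experiment 1. Without FGF, 3979 probes passed limma against bFGF (17.5%), of which 1597 rose (7.04%) and 2382 fell (10.5%), and 3462 passed against FGFC (15.3%), of which 1353 rose (5.96%) and 2109 fell (9.29%). The filter asked for signal on the bFGF and FGFC arrays and not on those without FGF. Probes lost without FGF were thus kept, while probes near background in both arms that rose without FGF were left out. The counts of rises and falls therefore do not show which direction was more common. The 3979 probes became 2445, 1320 and 902 without experiments 1, 2 and 3, 2412 and 2431 without the bFGF culture of experiment 1 or 3, and 2386 with the slide as a block. The bFGF cultures themselves differed from the pre-cultures with an SD of 0.171, and 0 probes passed limma there (127 had an unadjusted p under 0.05). The labels do not say that the arms came from these pre-cultures, and in experiment 2 the titles give passage 49 for the pre-culture and 59 for the arms. The FGFC and no FGF comparisons with bFGF share the bFGF cultures.

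**Figure D1:**
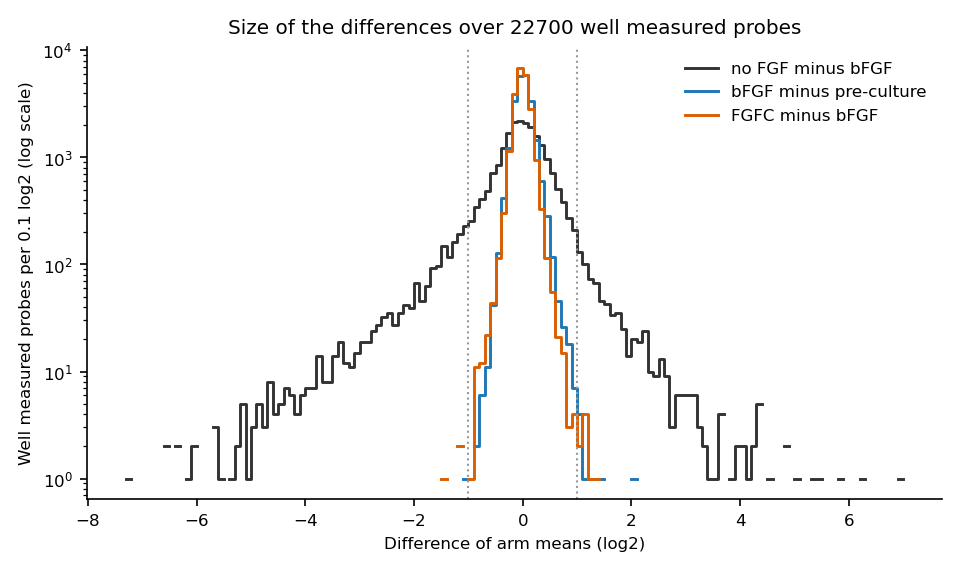
Number of well measured probes (log scale) by log2 difference of arm means, for FGFC minus bFGF, bFGF minus pre-culture and no FGF minus bFGF; dotted lines mark 2-fold. The FGFC curve has an SD of 0.150 and that of bFGF against pre-culture one of 0.171, and the no FGF curve (SD 0.747) reaches from -7.21 to 6.93.

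Within single experiments the arms lay further apart than in the mean. The SD of the difference was 0.374, 0.349 and 0.229 in experiments 1, 2 and 3, against 0.767, 0.748 and 0.830 for no FGF minus bFGF. Array noise alone, taken from the duplicate arrays on the scale of this difference of culture means, had an SD of 0.119 to 0.128. With FGFC, 31 probes were 2-fold or more higher and 246 lower in experiment 1, 25 and 31 in experiment 2, and 26 and 14 in experiment 3. In the mean 8 were higher and 3 lower, which is 11 probes (0.0485%). Experiment 1 ran against experiment 2, with the same sign at 21.6% of probes, whereas experiments 2 and 3 shared the sign at 74.7%. The dimmest 25% of probes had a median difference of -0.23, 0.20 and 0.01 in experiments 1, 2 and 3, and the brightest 25% one of 0.23, -0.23 and -0.07. The share of probes well above background moved with this. It was 57.2% to 59.96% on the FGFC arrays against 70.3% to 72.8% on the bFGF arrays in experiment 1, 76.4% to 77.1% against 66.1% to 69.6% in experiment 2, and 57.1% to 71.3% against 71.1% to 72.5% in experiment 3. Its part in the results was not tested. Both arms lay on the same slide in experiments 1 and 3 and on 2 slides in experiment 2.

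A probe had the same sign in all 3 experiments at 3749 of the 22700 well measured probes (16.5%). Of these 1778 (7.83%) were lower and 1971 (8.68%) higher with FGFC. All FGFC cultures lay outside the range of the bFGF cultures at 853 probes (3.76%), below it at 360 (1.59%) and above it at 493 (2.17%). The genes named next have the 8 lowest and the 8 highest mean differences among probes with a symbol and the same sign in every experiment. They were chosen by this difference, so their values describe it and test nothing, and 0 of the 16 passed limma.

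ACTA1, the skeletal muscle alpha-actin, had the largest difference of any well measured probe. Its level was 0.64, 0.43 and 0.26 in the bFGF cultures of experiments 1, 2 and 3 and -0.25, -1.18 and -1.47 in the FGFC cultures. Every FGFC culture lay below every bFGF culture. The mean difference was -1.41 with a 95% interval of -2.10 to -0.73 (limma adjusted p = 0.769). Without FGF, ACTA1 rose by 2.28 against bFGF, so FGFC and no FGF cultures lay on opposite sides of the bFGF cultures.

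CXXC4, an inhibitor of WNT signalling that binds Dishevelled, was at -1.58, -1.85 and -1.56 with bFGF and at -3.03, -2.65 and -2.66 with FGFC. The arms did not overlap, and the difference was -1.12 (95% interval -1.95 to -0.28). Removal of FGF gave -0.29 against bFGF, which limma did not call (adjusted p = 0.682). One pre-culture, that of experiment 3, was also low, at -2.91.

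TTN, the gene of the sarcomere protein titin, was among the genes that fell most without FGF. It was at 0.84, 0.62 and 0.66 with bFGF, at -0.28, -0.02 and -0.30 with FGFC and at -5.88, -5.19 and -5.83 without FGF, where it was well above background on only 1 of 6 arrays. The FGFC cultures lay below the bFGF cultures and far above those without FGF, with a difference from bFGF of -0.90 (95% interval -1.44 to -0.37) against -6.34. SYT4, a synaptotagmin of secretory vesicles, had the same order. It was at 0.01, -0.11 and -0.29 with bFGF and at -0.83, -0.98 and -1.08 with FGFC, a difference of -0.83 (95% interval -1.52 to -0.15), and it was not well above background on any array without FGF, at least 30.2-fold lower than with bFGF and at least 17.0-fold lower than with FGFC. For such a bound, the level without FGF on an array was set to the dimmest probe that the software marked as above background, unless the gene's own level was higher.

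The other 4 genes of the lower set were SERTAD4-AS1, an antisense RNA gene, ONECUT1 and GBX2, which are homeodomain transcription factors, and MT1X, a metallothionein. Their differences were -0.88, -0.86, -0.85 and -0.86. The intervals of ONECUT1 (-1.97 to 0.24) and GBX2 (-1.81 to 0.11) held 0, and the arms overlapped for MT1X. ONECUT1 and GBX2 fell without FGF by 5.58 and 1.94 against bFGF, while SERTAD4-AS1 did not pass the test there (0.36, limma adjusted p = 0.504).

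Among the higher genes, CUZD1, a CUB and zona pellucida domain protein, stood at 1.55, 2.18 and 1.84 with bFGF and at 2.19, 3.63 and 3.41 with FGFC. All FGFC cultures were above all bFGF cultures, with a difference of 1.22 (95% interval 0.43 to 2.02). CUZD1 fell without FGF by 2.57 against bFGF and by 3.79 against FGFC, so it lay furthest from no FGF in the FGFC cultures. PKDCC, a secreted tyrosine kinase, was at 0.68, 1.66 and 1.19 with bFGF and at 2.05, 2.51 and 2.44 with FGFC. Its difference was 1.16 (95% interval 0.36 to 1.95), a second probe of the gene gave 1.19, and here no FGF lay on the same side as FGFC, since PKDCC rose by 2.68 without FGF.

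JAKMIP2-AS1, an antisense RNA gene, and the genes SCN4B (a sodium channel beta subunit), MAP6 and MAP2 (microtubule-associated proteins) and SEZ6 (a membrane protein of neurons) were higher with FGFC by 1.02, 1.01, 0.93, 0.82 and 0.91. All of these rose without FGF, by 3.18, 2.08, 1.87, 2.65 and 1.18 against bFGF. SEZ6 had the narrowest interval of this set (0.47 to 1.35) and stood at -3.35, -3.50 and -2.98 with bFGF against -2.66, -2.30 and -2.14 with FGFC. The arms overlapped for MAP2, and also for ZBTB26, a zinc finger protein with a difference of 0.87 that came mostly from experiments 1 and 3 (1.39 and 1.06, against 0.17 in experiment 2). These are bulk samples, in which fewer cells of a kind and less RNA per cell cannot be told apart.

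**Figure D2:**
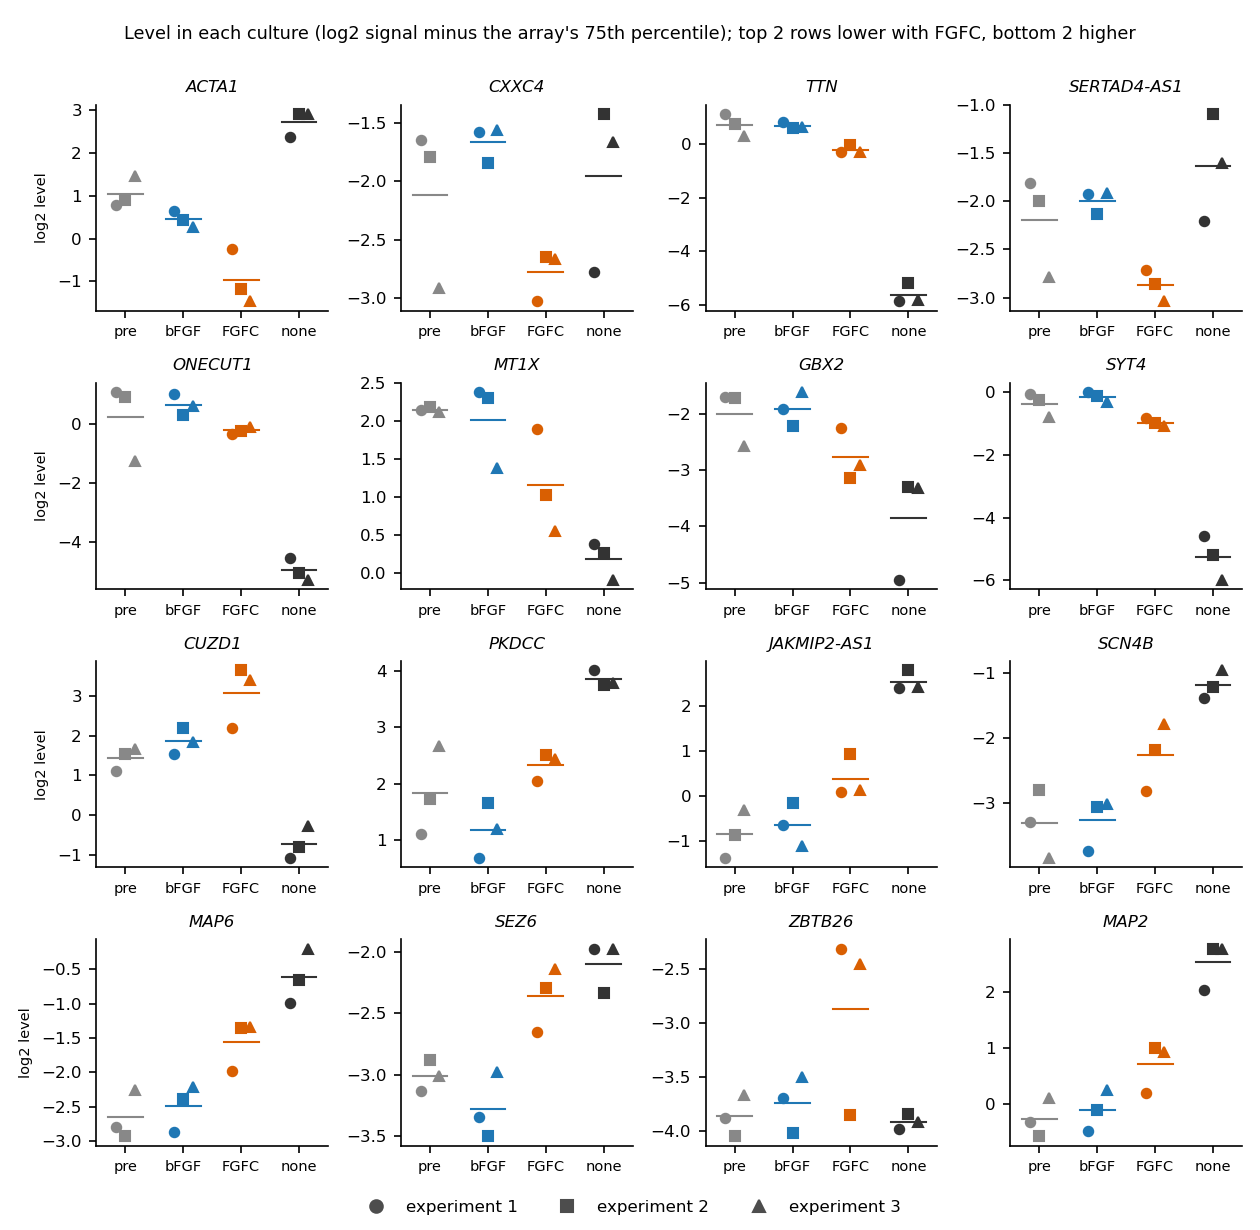
Level of the 16 genes with the largest differences of constant sign in each culture (log2 signal minus the 75th percentile of the array) in pre-cultures, bFGF, FGFC and no FGF; symbols are experiments 1, 2 and 3 and lines are means of 3 cultures. The FGFC cultures of ACTA1 (-1.47 to -0.25) and CXXC4 (-3.03 to -2.65) lie below every bFGF culture, and no FGF lies far below both arms for TTN, ONECUT1 and SYT4.

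The remaining well measured probes with a 2-fold difference were a second probe of MT1X (-1.12), a second probe of PKDCC, 2 probes without a symbol (1.13 and 1.15) and NPTX1, a neuronal pentraxin. NPTX1 had the highest mean difference, 1.35, but not the same direction in every experiment. It was at 1.21, 2.59 and 0.17 with bFGF and at 1.08, 3.89 and 3.05 with FGFC, and the 95% interval ran from -0.62 to 3.32. This difference rested on experiments 2 and 3, with 1.31 and 2.88, against -0.13 in experiment 1.

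The lower level of MT1X led to the other metallothioneins, small cysteine-rich proteins that bind zinc and copper and are induced by metals through the factor MTF1; these genes were chosen after their values were seen. Of 9 metallothionein genes with a probe, 7 were well measured, and 5 of the 7 were lower with FGFC in all 3 experiments, where 7.83% of all well measured probes were. MT1X stood at 2.38, 2.30 and 1.38 with bFGF, at 1.90, 1.03 and 0.55 with FGFC and at 0.38, 0.26 and -0.09 without FGF. Its FGFC cultures lay between the other arms in each experiment, with a difference of -0.86 (95% interval -1.61 to -0.11). MT1E, MT1F, MT1H and MT1B had differences of -0.75, -0.71, -0.65 and -0.37, and MT2A (-0.48) and MT1A (-0.15) were lower in experiments 2 and 3 but not in experiment 1. The bFGF culture of experiment 3 was the lowest of the bFGF arm for all 7. The test called none of them between FGFC and bFGF. MT1X, MT1E, MT1H, MT2A and MT1B fell without FGF, by 1.84, 1.65, 1.53, 1.49 and 1.02 against bFGF. The mRNAs are near-identical, so that probes of 1 gene may also bind those of another and the 7 values are not independent.

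The promoters of MT1X and MT2A are shown because metallothioneins share the metal response element to which MTF1 binds. Each run is the 250 bases before the transcription start on the plus strand of chromosome 16 in GRCh38.p14, from RefSeq, with matches to TGCACNC or TGCGCNC on either strand in capitals (GNGTGCA and GNGCGCA on the other strand). MT1X lies at chr16:56682220-56682469 and MT2A at chr16:56608334-56608583.
MT1X: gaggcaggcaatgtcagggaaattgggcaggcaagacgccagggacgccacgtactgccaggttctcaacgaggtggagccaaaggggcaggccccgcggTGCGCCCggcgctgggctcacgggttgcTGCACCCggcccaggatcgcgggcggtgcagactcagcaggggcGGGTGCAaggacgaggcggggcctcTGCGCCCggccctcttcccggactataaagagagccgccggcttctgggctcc
MT2A: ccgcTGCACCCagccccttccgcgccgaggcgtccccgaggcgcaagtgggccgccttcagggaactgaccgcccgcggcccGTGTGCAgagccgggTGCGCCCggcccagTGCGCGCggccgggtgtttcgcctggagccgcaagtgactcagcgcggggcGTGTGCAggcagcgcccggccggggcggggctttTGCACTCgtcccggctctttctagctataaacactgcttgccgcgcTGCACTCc
The MT1X promoter holds 4 matches and that of MT2A holds 7. Over 35116 promoters of this length, 24.8% hold 1 match or more and 0.370% hold 4 or more. A match is a run of letters and no shown binding site.

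The FGF receptors transmit both factors. All 4 receptor genes and FGFRL1, a receptor that lacks the kinase domain, were well measured, whereas the co-receptor genes KL and KLB were not. FGFR1, the main receptor of human ESCs, was at 3.51, 3.96 and 3.91 with bFGF and at 3.42, 4.42 and 4.29 with FGFC, a difference of 0.25 (95% interval -0.33 to 0.84). The arms overlapped, and experiment 1 went the other way. FGFR2, FGFR3 and FGFR4 had differences of 0.24, 0.42 and 0.09 and FGFRL1 one of -0.14, and the median over the 5 genes was 0.24 against -0.02 over all well measured probes. This median was -0.03, 0.27 and 0.35 in experiments 1, 2 and 3, and it became 0.07 and 0.13 without the FGFC culture of experiment 2 or 3, 0.12 without the bFGF culture of experiment 1 and 0.15 without experiment 2. The FGFR2 cultures with FGFC were all above those with bFGF. Without FGF, FGFR3, FGFR2 and FGFRL1 rose by 2.43, 0.77 and 0.73.

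Of the genes that report ERK activity, none passed limma between the arms. DUSP6, the ERK phosphatase, was at 5.23, 5.25 and 5.74 with bFGF, at 5.56, 4.85 and 5.27 with FGFC and at 0.92, 3.72 and 3.60 without FGF. FGFC and bFGF overlapped, with a difference of -0.18 (95% interval -1.47 to 1.11), and the no FGF cultures lay below both arms. DUSP6 fell by 2.66 without FGF. All cultures share 1 estimate of the spread in the fit, and the no FGF cultures of DUSP6 were the most spread. SPRY4, a Sprouty inhibitor, was at 2.02, 2.14 and 2.55 with bFGF and at 2.26, 1.77 and 2.16 with FGFC, a difference of -0.18 (95% interval -0.92 to 0.57) where removal gave a fall of 2.40. DUSP5 gave -0.11 against a fall of 1.90. Of the 13 ERK feedback inhibitors on the list 11 were well measured, 0 passed the test between FGFC and bFGF, and 9 had intervals inside 2-fold, with DUSP6 and IL17RD the exceptions. Their median was 0.33, -0.40 and -0.38 in experiments 1, 2 and 3, with the same signs as the brightest 25% of all probes. LRIG1, a membrane protein that limits receptor kinases, was 1 member with all FGFC cultures above the bFGF cultures (0.24), and it rose without FGF by 0.81.

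The transcription factors and early genes induced by ERK held no gene past limma between the arms either. MYC was at 2.60, 2.17 and 2.55 with bFGF, at 2.80, 1.53 and 2.00 with FGFC and at 0.33, 0.65 and 0.25 without FGF. The FGFC difference was -0.33 (95% interval -0.96 to 0.30) beside a fall of 2.02 on removal. IER3, ETV4 and PHLDA1 gave -0.23, -0.14 and -0.18 with FGFC and fell by 2.09, 1.44 and 1.39 without FGF, and EGR1 gave 0.21 and rose by 1.57. Of 18 genes on this list 13 were well measured, with a median of 0.20, -0.36 and -0.30 in experiments 1, 2 and 3. Of these 13 genes, 10 had intervals inside 2-fold. The exceptions were ETV5, FOS and JUN. The kinase cascade itself (19 genes), the PI3 kinase, AKT and insulin list (22 genes) and the p38 and JNK list (11 genes) lay inside 2-fold in full, with extremes of -0.31 at PIK3R1 and 0.21 at INSR.

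Nodal signalling held the largest differences of the pathway lists. NODAL, the ligand, was at -0.45, -0.88 and -1.42 with bFGF, at -0.98, -1.92 and -2.32 with FGFC and at -2.59, -2.54 and -4.19 without FGF. It was lower with FGFC in each experiment, but the bFGF cultures ranged more widely than the difference of the means, -0.82 (95% interval -1.88 to 0.23). LEFTY1, a Nodal inhibitor that is itself a target of Nodal, was at 3.60, 2.54 and 2.06 with bFGF and at 2.83, 1.75 and 1.18 with FGFC. Its differences in the 3 experiments, -0.77, -0.79 and -0.88, lay close together while its level differed between experiments, and the interval of the mean, -0.81, was -2.06 to 0.43. LEFTY2 was at -0.07, -1.34 and -1.05 with bFGF and at -0.64, -2.10 and -1.90 with FGFC, a difference of -0.73 (95% interval -1.76 to 0.31). None of the 3 passed limma. Removal of FGF lowered NODAL and LEFTY1, which fell by 2.19 and 1.93 against bFGF. LEFTY2 did not pass the test there (1.32, limma adjusted p = 0.0982), which does not show that it was unchanged.

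CRIPTO, the Nodal co-receptor (also TDGF1), did not follow NODAL. It was at 5.43, 5.59 and 5.39 with bFGF, at 5.70, 5.32 and 5.53 with FGFC and at 1.98, 2.55 and 1.93 without FGF. The FGFC difference was 0.05 (95% interval -0.41 to 0.50), and the fall of 3.32 without FGF lies far outside that interval. GDF3 (-0.09) and SKIL (-0.23) were also close to 0 with FGFC and fell by 1.58 and 1.05 on removal. The receptor genes TGFBR1 and ACVR1B had all FGFC cultures above all bFGF cultures, by 0.15 and 0.25. Of 20 genes on the list 17 were well measured, with a median of -0.07, and 14 were inside 2-fold; the exceptions were NODAL, LEFTY1 and LEFTY2.

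**Figure D3:**
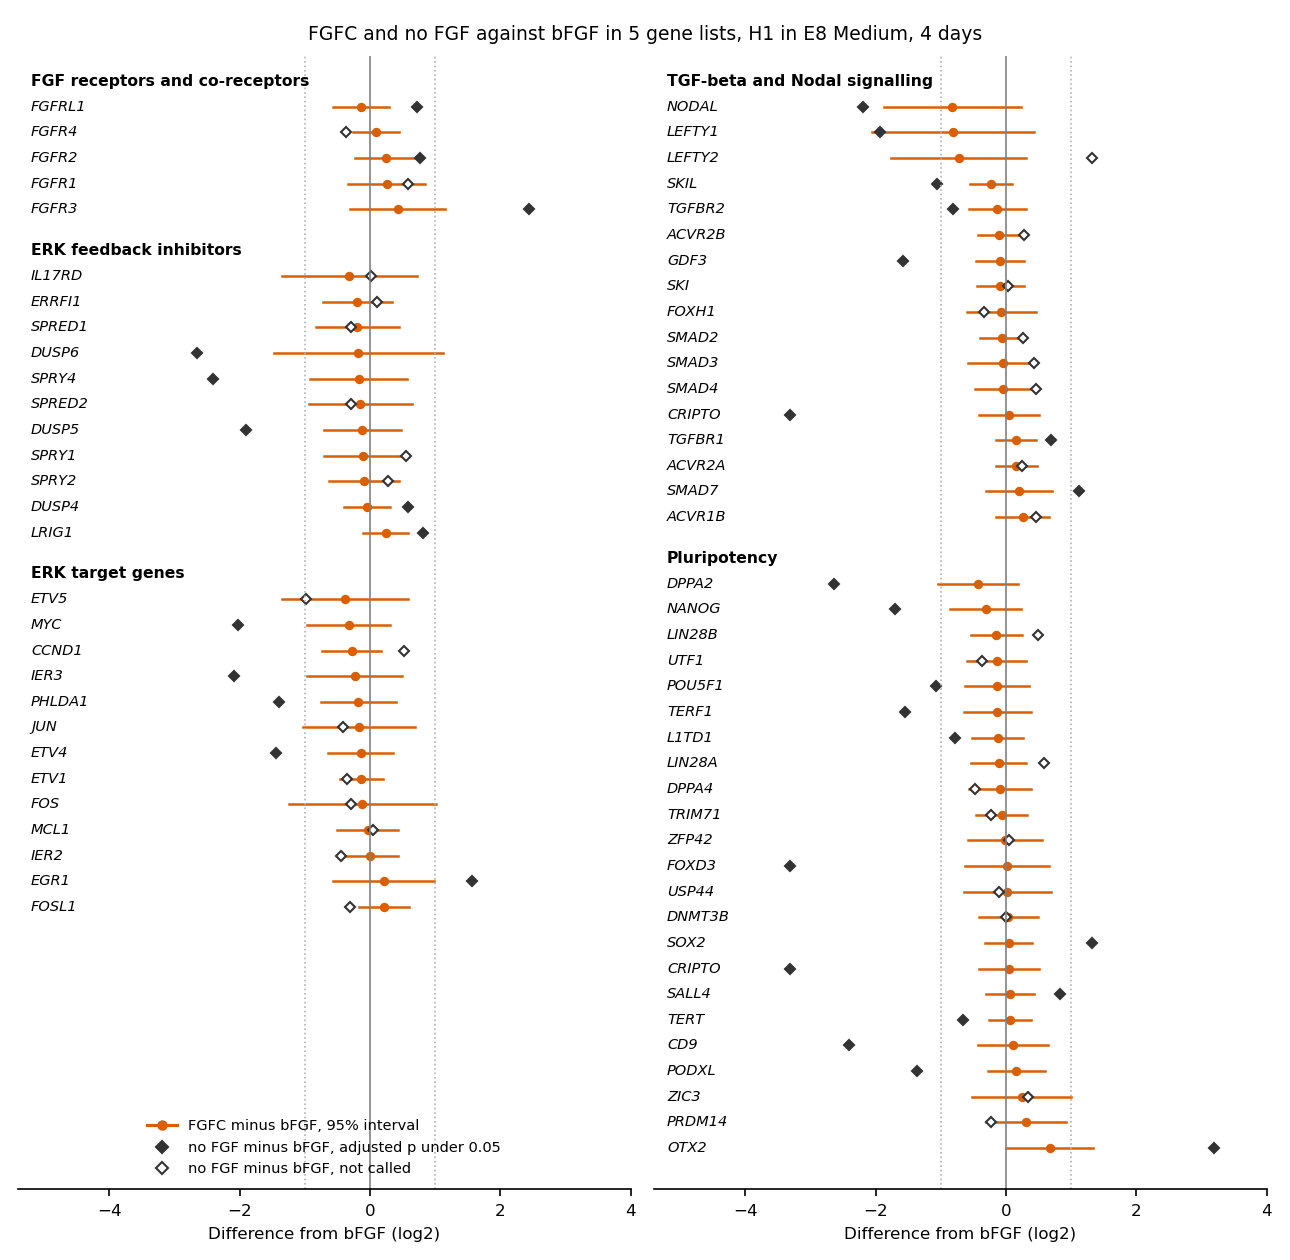
Difference from bFGF (log2) for the well measured members of 5 gene lists: orange points and bars are FGFC minus bFGF with the 95% interval, diamonds are no FGF minus bFGF, filled where limma called them, and dotted lines mark 2-fold. DUSP6, MYC, CRIPTO and NANOG lie between -0.33 and 0.05 with FGFC and at -2.66, -2.02, -3.32 and -1.71 without FGF, while NODAL, LEFTY1 and LEFTY2 lie furthest left with FGFC.

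The pluripotency genes, which also served to check that the cultures are undifferentiated human ESCs, held no gene past limma between the arms. All 23 genes of the list were well measured, 20 had intervals inside 2-fold, and the median difference was 0.01. POU5F1, the gene of OCT4, was at 8.11, 8.24 and 7.87 with bFGF and at 8.24, 7.84 and 7.72 with FGFC, a difference of -0.14 (95% interval -0.63 to 0.35). NANOG was at 4.11, 4.17 and 4.12 with bFGF and at 4.31, 3.52 and 3.63 with FGFC. The bFGF cultures lay within a narrow range and the FGFC cultures on both sides of it, with a difference of -0.31 (95% interval -0.86 to 0.23). Both genes fell without FGF, by 1.08 and 1.71. SOX2, a factor of pluripotent and of neural cells, gave 0.05 with FGFC and rose by 1.32 without FGF, and LIN28A and DNMT3B gave -0.11 and 0.04. OTX2, a factor of primed pluripotency and of anterior neural cells, stood apart from these. It was at -1.44, -0.92 and -1.69 with bFGF, at -0.91, -0.23 and -0.91 with FGFC and at 2.06, 1.75 and 1.71 without FGF. All FGFC cultures were above all bFGF cultures, if narrowly, by 0.67 (95% interval -0.00 to 1.34). PODXL also had all FGFC cultures above (0.16). Without FGF, 3 of the 23 genes rose and 10 fell, where 7.04% and 10.5% of all well measured probes did.

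Markers of other cell types were counted and summed in both arms. Of 16 neural and ectoderm markers 3 were well measured, of 19 mesoderm and endoderm markers 4, of 15 amnion and trophoblast markers 3 and of 14 fibroblast markers 6. Of these lists 8, 7, 7 and 4 markers were not well above background on any bFGF array, and 4, 7, 6 and 2 on any FGFC array. The same share over all probes was not counted, so these counts do not show that markers came on with FGFC. The FGFC arrays of experiment 2 had 76.4% to 77.1% of all probes well above background, against 66.1% to 72.8% on the bFGF arrays. The part of this in the counts was not tested. In units of the 75th percentile, the summed level of the neural markers was 20.9 to 22.5 over the bFGF cultures and 19.2 to 24.05 over the FGFC cultures, against 37.3 to 81.1 without FGF. The ranges of FGFC and bFGF also overlapped for the mesoderm and endoderm list (2.68 to 3.11 against 2.79 to 3.19), the amnion and trophoblast list (7.18 to 9.40 against 7.25 to 8.83) and the fibroblast list (48.7 to 57.8 against 53.2 to 60.6). Such a sum is led by its brightest probes, so the overlap says little about the dim markers.

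Ligands and heparan sulfate genes bear on how FGF is bound. FGF2, the cells' own copy of the gene of bFGF, was at 0.17, 0.33 and 0.13 with bFGF and at 0.13, 0.55 and 0.44 with FGFC, a difference of 0.16 (95% interval -0.19 to 0.51). A second probe of FGF2 gave -0.02 (95% interval -0.59 to 0.54). FGF13, an intracellular member of the family that does not signal through FGF receptors, was at 3.40, 3.13 and 3.14 with bFGF and at 3.27, 1.99 and 2.33 with FGFC. The arms overlapped only through experiment 1, and the difference was -0.70 (95% interval -1.31 to -0.08). Of 22 ligand genes 7 were well measured. GPC3 and GPC4, glypicans that carry heparan sulfate on the cell surface, were higher with FGFC in each experiment. GPC4 was at 4.31, 4.42 and 4.51 with bFGF and at 4.67, 4.88 and 5.04 with FGFC, with no overlap and a difference of 0.45 (95% interval 0.09 to 0.81). GPC3 gave 0.65 (95% interval 0.12 to 1.19) and rose by 2.73 without FGF. SULF1, an enzyme that removes sulfate groups from heparan sulfate, was at 0.62, 0.26 and 0.37 with bFGF and at -0.27, -0.11 and 0.10 with FGFC. All FGFC cultures were below, by a difference of -0.51 whose interval held 0 (-1.95 to 0.93), and SULF1 fell by 2.94 without FGF. The 22 well measured genes of this list had a median of 0.06 and 0 passed the test.

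The other lists bounded the difference in general cell functions. Every well measured member lay inside 2-fold among the 29 ribosomal protein genes, the 25 genes of mitochondrial respiration, the 25 cell cycle genes, the 20 genes of cholesterol synthesis and the 13 housekeeping genes. The lowest ribosomal protein gene, RPS23, gave -0.12, while a second probe of it gave 0.10. Glycolysis and hypoxia response genes ranged from -0.44 at PKM, a pyruvate kinase, to 0.27 at EGLN3, an oxygen-dependent hydroxylase, and 19 of 24 lay inside 2-fold. BMP signalling ranged from -0.31 at BAMBI to 0.24 at ID1, with 10 of 12 inside, and WNT signalling from -0.25 at WNT3 to 0.37 at SFRP1, with 16 of 18 inside. Among the 12 genes of naive pluripotency 4 were well measured, from TFCP2L1 (-0.58) to SUSD2 (0.24). Over all 26 lists, 375 genes were well measured, 0 passed limma between FGFC and bFGF, 337 (89.9%) had intervals inside 2-fold, where 95.3% of all well measured probes had, and 99 (26.4%) passed limma for FGF removal against bFGF, where 17.5% of all did. The list medians ran from -0.17 to 0.24.

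Genes that depend on FGF were then taken as a set. They were chosen by limma on no FGF against the mean of both arms, a contrast that is independent of FGFC minus bFGF in the design and that 5092 probes passed (22.4%), 2180 higher (9.6%) and 2912 lower (12.8%). Without experiment 2 or 3, 1851 and 1379 passed. The filter for signal in both arms also bears on these counts of rises and falls, and on those below. The 10 largest falls and 10 largest rises had FGFC differences of -0.90 to 1.35, and 10 of the 20 lay inside 2-fold. FOXL2NB, a gene beside FOXL2, was at 0.29, 0.02 and 0.71 with bFGF and at -0.23, -0.91 and -0.32 with FGFC, a difference of -0.83 (95% interval -1.52 to -0.14). It was not well above background on any array without FGF, where it was at least 49.3-fold lower than with bFGF and at least 27.8-fold lower than with FGFC. FOXL2, a forkhead factor, gave the same difference, -0.83 (95% interval -1.54 to -0.12), with overlapping arms, and was chosen after its values were seen. IL17C, a cytokine, and RIPOR2 were higher with FGFC (0.25 and 0.26), while VWC2, a BMP antagonist, and ALKAL2, a ligand of the ALK receptor, were lower (-0.32 and -0.33), and the arms overlapped for these 4 genes. FRZB, a secreted WNT antagonist, was the largest rise. It was at -2.71, -2.04 and -2.003 with bFGF, at -1.91, -1.41 and -1.15 with FGFC and at 4.68, 4.52 and 4.84 without FGF. All FGFC cultures were above all bFGF cultures, by 0.76 (95% interval 0.20 to 1.33), where removal gave 6.93. LMO1, ID4 and DLK1 rose by 6.21, 4.87 and 5.37 without FGF and had FGFC differences of 0.05, 0.04 and -0.11. HAPLN1, which links hyaluronan to proteoglycans, went the other way, with all FGFC cultures below the bFGF cultures (-0.27) and a rise of 5.80 on removal. GRHL3, PAMR1, HESX1, EPHA4 and LEF1 gave 0.64, 0.42, 0.30, 0.25 and 0.22, with overlapping arms.

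The 1585 probes that fell 2-fold or more on this contrast had a median FGFC difference of -0.08, which was -0.18, 0.01 and -0.05 in experiments 1, 2 and 3. The 659 probes that rose had a median of 0.11, which was 0.17, 0.09 and 0.09. With the probes chosen anew without experiment 1, the first median was 0.0078 and the second 0.02, values that also reflect a changed set. Over the fixed 1585 probes the shift was largest in experiment 1. There the FGFC arrays had fewer probes above background than the bFGF arrays, and the part of this was not tested. For 1214 of these 2244 probes (54.1%) the interval of FGFC minus bFGF lay within a band of 50% of the probe's own removal effect to either side of 0.

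A second choice of probes, by no FGF against pre-culture, shares no culture with FGFC minus bFGF. The median FGFC difference was -0.17 for the 177 probes that were over 8-fold lower without FGF, and -0.26, -0.05 and -0.16 in the experiments. It was 0.29 for the 49 probes that were over 8-fold higher, and 0.12, 0.42 and 0.36 in the experiments. The first group had 74.6% of its probes below 0 and the second 10.2%, where 55.1% of all well measured probes were below 0. Groups with smaller removal effects lay in between in the same order. The largest of these medians, 0.29, is small beside removal effects of over 3 on the log2 scale, and the probes of a group are not independent of each other.

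**Figure D4:**
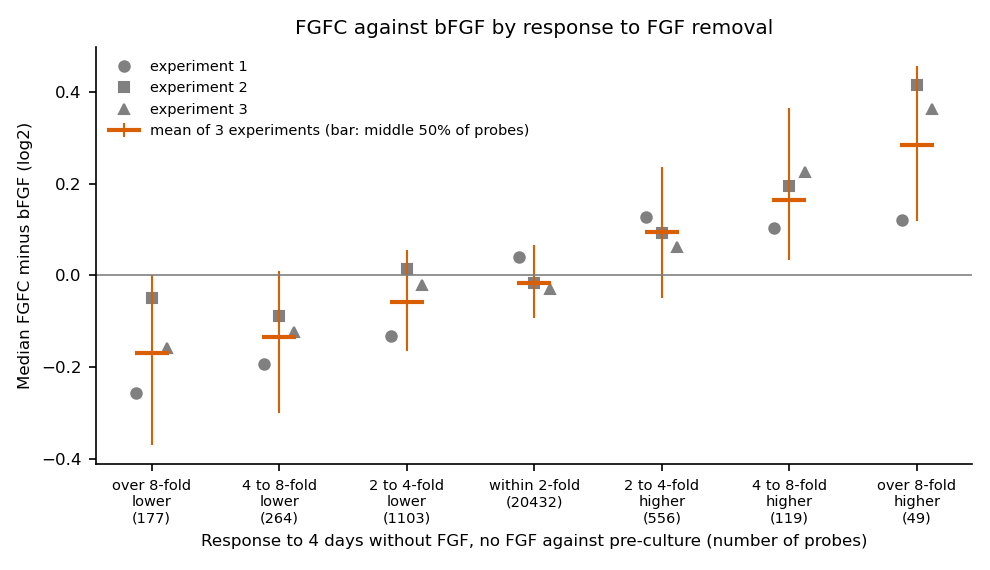
Median FGFC minus bFGF (log2) over well measured probes grouped by their response to 4 days without FGF (no FGF against pre-culture, number of probes in brackets); grey symbols are single experiments, orange lines the mean of 3 experiments and orange bars the middle 50% of probes. Medians climb from -0.17 at the probes over 8-fold lower without FGF to 0.29 at those over 8-fold higher, and in each experiment every group over 2-fold lower without FGF lies below every group over 2-fold higher.

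The 16 genes of constant sign were also read in cultures kept longer with FGFC or bFGF, which share no culture with the 4-day arms, with 1 culture per arm in each system and so with no test. Both E8 systems had 100 ng/mL of either factor, and the others had 5 ng/mL or, for 201B7, 10 ng/mL. H1 in E8 Medium after 30 days is the closest system, and its cultures carry the label of experiment 1. There, 8 of 8 genes that were lower at 4 days were lower again, and 7 of 8 that were higher were higher again, with ZBTB26 (-0.96) the exception. ACTA1, TTN, CXXC4 and SYT4 gave -2.68, -2.36, -2.08 and -1.88 at 30 days, and 12 of the 16 differences were larger than at 4 days. The SD over all well measured probes was also larger, 0.361 for this single pair of cultures against 0.150 for the mean at 4 days. The count therefore does not show a difference that grows with time. In 253G1, an iPSC line kept in E8 Medium for 36 days, 6 of 8 and 6 of 8 genes had the direction of the 4-day arms, and CXXC4, TTN and PKDCC gave -1.03, -0.73 and 1.21. In H1 kept in MEF-conditioned medium for 41 days the counts were 3 of 8 and 4 of 8, in KhES-1, an ESC line kept on feeder cells for 30 days, 1 of 8 and 1 of 8, and in 201B7, an iPSC line kept on feeder cells for 50 days, 5 of 8 and 6 of 8. Over all well measured probes, 45.1% to 50.4% were below 0 in these systems.

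All probes of constant sign at 4 days were read in the same cultures. Of the 1778 lower probes, 62.0% were below 0 in H1 after 30 days in E8 Medium, where 46.4% of all well measured probes were, and 72.3% in 253G1, against 50.4% of all. The shares were 52.8%, 41.4% and 39.3% in H1 with MEF-conditioned medium, KhES-1 and 201B7, against 45.7%, 45.1% and 45.4% of all. Of the 1971 higher probes, 63.5% and 63.6% were above 0 in H1 and 253G1 in E8 Medium, against 53.6% and 49.6% of all. In H1 with MEF-conditioned medium, KhES-1 and 201B7 they were 52.9%, 45.7% and 55.8%, against 54.3%, 54.9% and 54.6% of all. NODAL, LEFTY1 and LEFTY2 gave -1.80, -2.72 and -1.89 in H1 after 30 days in E8 Medium and 0.49, -0.55 and 0.18 in 253G1, so that the E8 systems did not share a direction for these genes. OTX2 gave 1.17 and 0.96 in them.

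**Figure D5:**
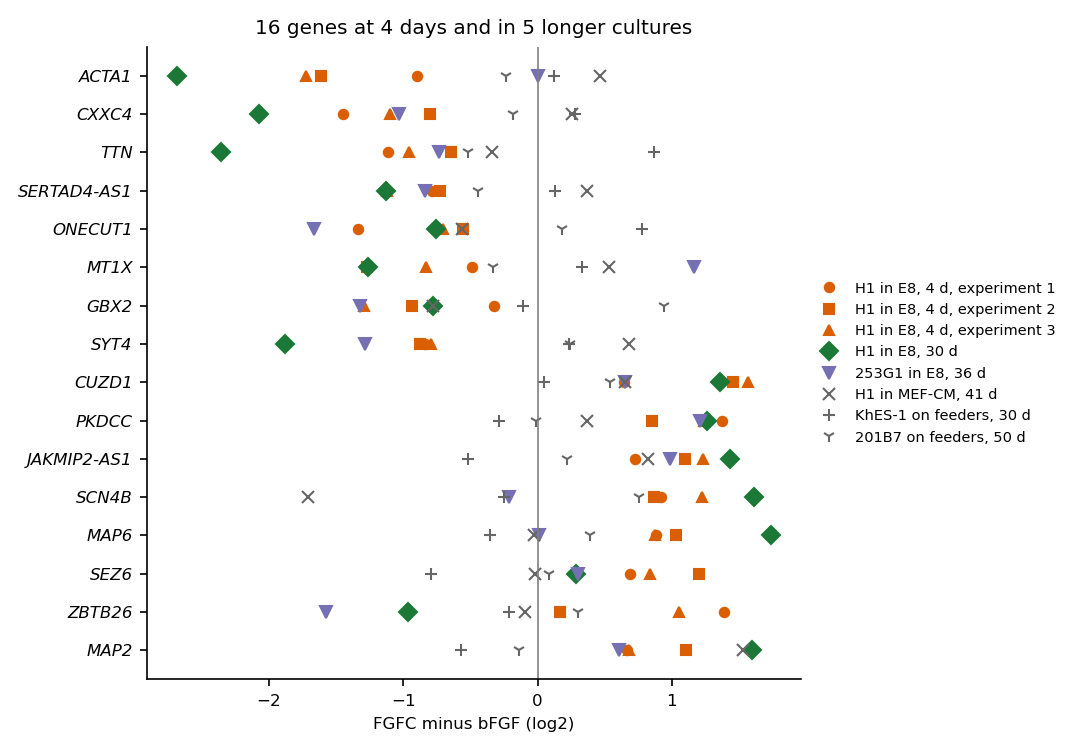
FGFC minus bFGF (log2) of the 16 genes of constant sign in the 3 experiments at 4 days (orange) and in 5 systems of longer culture with 1 culture per arm. H1 in E8 Medium at 30 days (green) lies on the side of the 4-day experiments for 15 of the 16 genes, and H1 in MEF-conditioned medium and KhES-1 lie on both sides of 0.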

How the data were processed

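The authors deposited the output of Agilent's Feature Extraction software for each array. Its processed signal is a background-subtracted intensity on a linear scale, not scaled between arrays, and the median spot and background signals beside it are raw intensity values. The deposited table of the series holds the same intensity for the 24 arrays used (largest difference 0). The deposited marks of each spot (outlier, well above background) are yes or no. The methods of the study set signals under 1 to 1 and scaled each chip to its 75th percentile, which was followed here.

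From there, 4259 control spots and the outlier spots of each array (306 to 479 on the 24 arrays) were left out of 62976, log2 signals were averaged per probe, the 75th percentile over 42405 probes was subtracted, and the 2 arrays of a culture were averaged. A probe was well measured when at least 0.5 of its spots had the mark on all 12 arrays of both arms. Precision is limited by the number of cultures, which is 3 per arm. Gene symbols came from RefSeq accessions (GRCh38.p14), which named 25715 probes.

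Tests used limma 3.58.1 in R 4.3.3 (lmFit and eBayes, no block) over the 12 cultures of pre-culture, bFGF, FGFC and no FGF, two-sided, with Benjamini-Hochberg adjustment over all probes at 0.05, and 95% intervals from the same fit. It was tested on simulated data. Other steps used Python 3.11.15, pandas 2.3.3 and numpy 2.4.6. Experiment numbers were not taken to pair the arms, so the main intervals include the spread of level between experiments. For 5 arrays of experiment 3 the passage labels disagree. The alternatives were other background corrections, scalings, filters, blocks, single arrays and left-out cultures.

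Members, lists and tests were chosen with earlier results of these data known. Named genes were every probe past the test between FGFC and bFGF (0), the 8 highest and 8 lowest differences of the same sign in 3 experiments, the 10 largest rises and 10 largest falls in no FGF against the mean of both arms, the members of 5 pathway lists and the extremes and narrowest interval of the other lists, with the probe of the highest mean signal for a gene. Some genes this rule names are not reported here.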

Additional observations from a re-analysis of the deposited data

How the results depend on the processing

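In all 21 alternatives that give this count, 0 probes passed limma between FGFC and bFGF. The 16 genes of constant sign kept their direction and stayed short of the threshold in all 330 values. Staying short of it follows from the count of 0 above. Leaving out an experiment could not turn their direction, since they were chosen for the same sign in every experiment. The deposited value table, the intensity trend and the replicate block, among others, gave the same differences. Their direction could change only with other background corrections or scalings, single arrays, the slide as a block or a culture left out. The 20 genes chosen for FGF removal kept their direction and stayed past the threshold for removal in all 390. They were chosen as the largest effects past the test in these same cultures, so this outcome was close to fixed in advance. The number of well measured probes with an interval inside 2-fold was 18663 to 22545 against 21635. The 11 probes with a 2-fold mean difference became 6 with normexp background correction, 19 with the second array of each culture and 26 with the slide as a block, and 7 to 43 with a culture or an experiment left out (43 without FGFC replicate 1, 26 without replicate 1, 7 without bFGF replicate 1 or without replicate 3). The SD of 0.150 ran from 0.150 to 0.262 with a culture or experiment left out, the highest without FGFC replicate 1. For no FGF against bFGF, the 3979 probes past limma became 2386 with the slide as a block and 902 to 4680 with a culture or experiment left out (902 without replicate 3), and the 5092 against the mean of both arms became 1379 to 6356 with the same left out. The median of the probes 2-fold lower without FGF, -0.08, was -0.13 with the slide as a block, ran from -0.12 to 0.0078 with a culture or experiment left out and reversed without FGFC replicate 1 (0.0071) and without replicate 1 (0.0078), and that of the probes 2-fold higher, 0.11, was 0.15 with the slide as a block and ran from 0.0225 to 0.14 with a culture or experiment left out (lowest without replicate 1). With probes chosen by no FGF against pre-culture, an alternative added after seeing the data, these medians were -0.08 and 0.12. Each alternative chose these probes anew from its own fit, so its medians also reflect a changed set. Of 546 values of list medians 530 moved by less than the SD over experiments, and 12 of the others were of the FGF ligands. That SD is wide where experiments 1 and 2 disagree, so such a move can change the sign and does not show a stable median. The ERK feedback median of -0.15 became 0.05 without FGFC replicate 2 and -0.40 without replicate 1, both within it.

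The check used does not settle whether the experiment numbers pair the arms. Each arm has few cultures, so deviations from its mean are tied to each other and cannot rule pairing out. The arms of an experiment share the passage in their titles. The paper used paired t-tests for marker genes in its quantitative RT-PCR of these conditions. The deviations of same-numbered bFGF and FGFC cultures from their arm means had correlations of 0.08, 0.14 and 0.67, and bFGF culture 2 had its highest correlation with FGFC culture 1 (0.14). With a replicate block, 0 probes passed limma (182 well measured probes with an unadjusted p under 0.05 against 119, lowest adjusted p 0.737), 21790 intervals lay inside 2-fold, 4154 probes passed for no FGF against bFGF and 5312 against the mean of both arms, and no call named here changed. The fit of the 2 arms alone gives no value for FGF removal. Without experiment 2, where the arms lay on separate slides, 0 probes passed. Near background, precision is lower, so no bound is given for probes outside the well measured set.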
